A study of Mus musculus with 11 samples.

Results

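The 141 genomic regions described here were accessible in mouse embryonic stem cells on the C57BL/6J background and had little or no signal in cells on the DBA/2J background. They were chosen by their measured counts. On chromosomes 1 to 19 without 11 and 13, a region was taken when the mean CPM (the library's counts in the region, scaled to a fixed total over all of its regions) was at least 2 in both lines of the first background and, in both lines of the second, at most 1/8 of the lower of those means. The rule found 141 of 213345 regions on these 17 chromosomes, out of 248336 regions in the whole table. They are called D2-low regions below.

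The study profiled open chromatin by ATAC-seq, in which a transposase cuts accessible DNA, in 11 libraries of 4 embryonic stem cell lines. B6 is a line of the inbred strain C57BL/6J (3 libraries) and D2 a line of the inbred strain DBA/2J (3 libraries). B6-13D2 is a line of a congenic strain labelled B6.D2-(rs30079041-rs51756099)/Bakr, a B6 genome with a D2 interval on chromosome 13 (2 libraries). D2-13B6 is a line of the reciprocal strain, a D2 genome with a B6 interval on chromosome 13 (3 libraries). The sample labels give its interval as rs29224292-rs13469455 and the series' design text as rs29224292-rs51756099, and the labels were not reconciled here. All 4 lines were grown in 15% serum with LIF and with the inhibitors PD0325901 (1 µM) and CHIR99021 (3 µM), and each library was made from 100000 cells. Each genotype is 1 cell line and its libraries are technical replicates, so errors and p-values measure the spread between libraries and not between animals or independently derived lines. 

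An open region in ATAC-seq is usually a promoter, an enhancer, an insulator or an active transposable element, where nucleosomes have been displaced. Much of the mouse genome outside genes consists of interspersed elements such as L1 and endogenous retroviruses, and of gene families amplified in tandem, for example the zinc finger genes of the KRAB class, which bind such elements and recruit heterochromatin to them. Full-length mouse L1 elements begin with a promoter made of short tandem units, and endogenous retroviruses are flanked by a direct repeat at each end. Inbred strains differ in which insertions and copies they carry. The reference assembly, GRCm38 (mm10), is that of C57BL/6J, and no D2 genome was used here. Closed chromatin, sequence absent from D2 DNA and reads that could not be placed on the reference therefore cannot be told apart at a D2-low region.

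Central 300-base windows of 4 of the 10 strongest D2-low regions are shown first because they differ in kind. They are the strongest region of all, beside the predicted gene Gm14412 on chromosome 2, then a region near Pou5f1 on chromosome 17, a CpG-rich region on chromosome 12 and a region in an intron of Kdm4c on chromosome 4. They are read 5′ to 3′ on the plus strand of GRCm38, from coordinates taken as the table lists them. Capitals mark a match to CCANNAGNG, letters from the core bound by the insulator protein CTCF (in the Pou5f1 window, on the minus strand), or to ATTTGCAT, the octamer bound by POU factors.
chr2:177329821-177330120: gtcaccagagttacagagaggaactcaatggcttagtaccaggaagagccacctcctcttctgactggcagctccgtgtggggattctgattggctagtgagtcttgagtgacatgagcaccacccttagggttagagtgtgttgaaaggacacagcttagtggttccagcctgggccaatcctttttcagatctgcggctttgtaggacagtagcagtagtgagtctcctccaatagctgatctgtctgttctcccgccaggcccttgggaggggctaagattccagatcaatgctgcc
chr17:35490180-35490479: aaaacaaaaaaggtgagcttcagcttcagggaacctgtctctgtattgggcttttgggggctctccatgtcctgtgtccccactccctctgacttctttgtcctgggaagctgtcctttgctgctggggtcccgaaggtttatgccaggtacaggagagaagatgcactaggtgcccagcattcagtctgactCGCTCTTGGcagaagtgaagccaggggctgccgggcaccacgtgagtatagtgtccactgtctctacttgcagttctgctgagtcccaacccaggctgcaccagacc
chr12:21899022-21899321: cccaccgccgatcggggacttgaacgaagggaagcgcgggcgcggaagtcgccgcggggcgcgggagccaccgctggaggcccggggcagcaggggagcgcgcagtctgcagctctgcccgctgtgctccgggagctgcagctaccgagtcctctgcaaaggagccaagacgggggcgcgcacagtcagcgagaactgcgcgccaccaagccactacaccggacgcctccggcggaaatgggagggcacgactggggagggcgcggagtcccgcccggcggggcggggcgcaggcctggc
chr4:74367804-74368103: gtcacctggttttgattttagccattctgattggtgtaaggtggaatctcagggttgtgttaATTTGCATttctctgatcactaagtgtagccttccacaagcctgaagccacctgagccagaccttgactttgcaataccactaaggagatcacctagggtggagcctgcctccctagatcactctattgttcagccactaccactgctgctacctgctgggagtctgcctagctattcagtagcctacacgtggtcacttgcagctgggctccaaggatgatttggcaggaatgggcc
The CpG-rich window of chromosome 12 holds 38 CpG dinucleotides and 74.3% GC. The other windows shown hold 1 to 4 CpG dinucleotides and 50% to 55% GC.

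A second set of sequences shows the tandem units found in part of the D2-low regions inside long repeats. In 26 of the 51 D2-low regions that lie in a soft-masked block of at least 4 kb, a tandem repeat overlapped the region. Its unit was 184 to 222 bp (median 211.5 bp), within search limits of 180 to 250 bp. Soft-masked bases are those the assembly marks as interspersed or low-complexity repeats. Both units of a pair are printed for a D2-low region in an intron of Itpr1 on chromosome 6 and for an intergenic one on chromosome 7, with capitals at the positions where the units of a pair differ.
chr6:108272156-108272361: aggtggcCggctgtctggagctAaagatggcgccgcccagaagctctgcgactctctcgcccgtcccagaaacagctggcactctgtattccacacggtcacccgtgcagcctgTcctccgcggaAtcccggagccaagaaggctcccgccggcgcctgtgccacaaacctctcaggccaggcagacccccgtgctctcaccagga
chr6:108272362-108272567: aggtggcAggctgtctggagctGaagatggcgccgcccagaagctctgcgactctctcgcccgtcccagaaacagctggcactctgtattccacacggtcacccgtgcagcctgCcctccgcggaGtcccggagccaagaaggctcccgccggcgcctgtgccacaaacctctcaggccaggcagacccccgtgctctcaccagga
chr7:55598342-55598555: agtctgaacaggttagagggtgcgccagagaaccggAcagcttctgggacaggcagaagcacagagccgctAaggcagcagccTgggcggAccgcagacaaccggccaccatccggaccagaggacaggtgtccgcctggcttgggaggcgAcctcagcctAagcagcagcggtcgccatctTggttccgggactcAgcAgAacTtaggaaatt
chr7:55598556-55598769: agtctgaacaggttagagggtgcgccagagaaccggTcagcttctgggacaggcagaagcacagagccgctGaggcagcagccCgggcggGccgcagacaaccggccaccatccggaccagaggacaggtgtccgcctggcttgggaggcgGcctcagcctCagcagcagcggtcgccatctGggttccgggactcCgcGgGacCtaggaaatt
The units of the first pair, 206 bp long, differed at 4 positions (98.1% identical). The units of the second pair, 214 bp long, differed at 11 positions (94.9% identical). Both pairs were chosen among the most alike of 15 regions in which 2 whole consecutive units could be cut out. Compared position by position without gaps, so that a single inserted base lowers the value, these 15 pairs were 26.2% to 98.1% identical, 9 of them at 82.0% or more. The Itpr1 region matched 357 other places in GRCm38 and the chromosome 7 region 220, counting matches with at least 90% identity over at least 80% of the region.

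In the library totals the D2-low regions fell into a high and a low set of libraries. They held 0.0782% to 0.0838% of all counts in the 5 B6 and B6-13D2 libraries, and 0.00417% to 0.00485% in the D2 and D2-13B6 libraries except D2-13B6 replicate 3, which was at 0.00709%. Library totals ran from 15198496 counts (B6 replicate 2) to 43042955 (D2-13B6 replicate 1), and the D2-background libraries were the deeper ones. Of 25 pluripotency genes fixed as a list, among them Pou5f1, Nanog and Sox2, 25 had a promoter region with a mean of at least 2 CPM in all 4 lines. The strongest promoter region of each gene was taken. Since 92900 of the 213345 regions reach this level in both B6-background lines, the count does not identify the cell type.

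Because the regions were chosen for this difference, the levels in both backgrounds are a description. The lower of the B6 and B6-13D2 means ran from 2.02 to 26.7 CPM with a median of 3.63, and the higher of the D2 and D2-13B6 means from 0.0310 to 1.82 CPM with a median of 0.286. The ratio of these means had a median of 11.7 and reached 136. It was at least 16 in 44 regions and at least 32 in 8. In 141 of 141 regions, every B6-background library was above every D2-background library. The gap between means that the rule demands favours this outcome. No share over other regions is given, so nothing is read from the count.

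**Figure D1:**
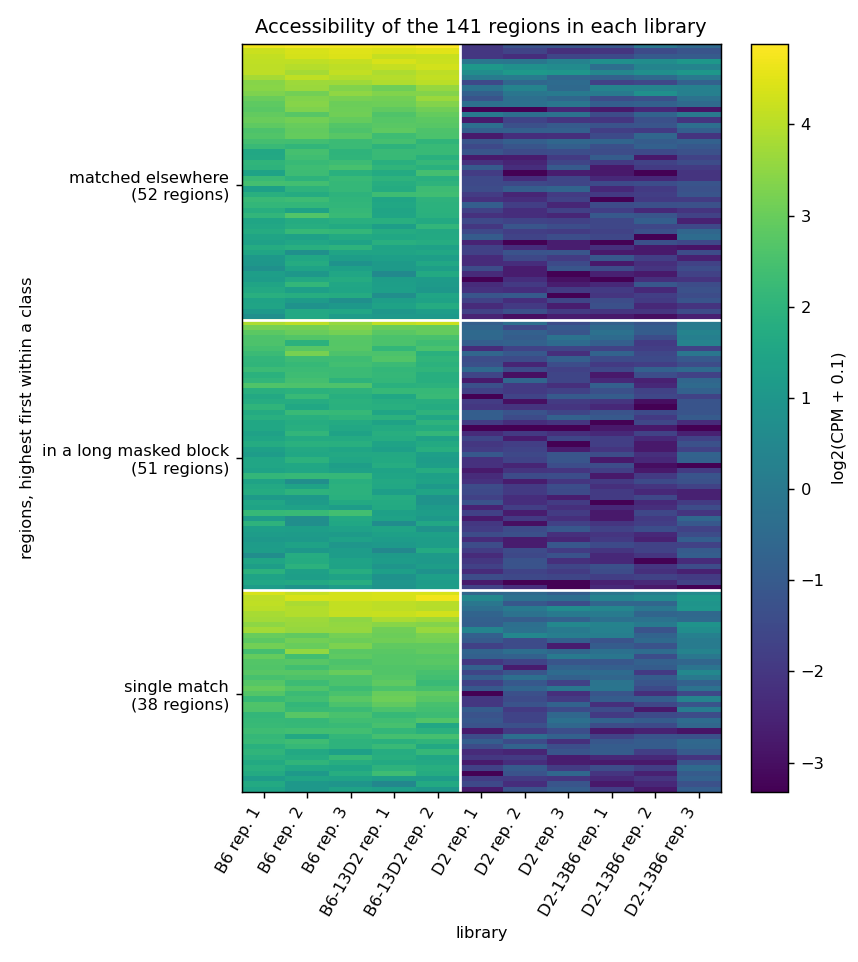
Accessibility of the 141 D2-low regions (rows, strongest first within each of 3 sequence classes) in the 11 libraries (columns), as log2(CPM + 0.1). The 5 B6 and B6-13D2 columns are brighter than the 6 D2 and D2-13B6 columns in each of the 3 classes, as the rule requires.

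The remaining signal in D2-background cells was low and seldom nil. Over the 6 D2-background libraries together, a region had 4 to 380 counts with a median of 53, and 0 of 141 had none. In D2 alone, 5 regions had at most 3 counts in each library, the number taken here as the detection floor, and in D2-13B6 3 regions did. Both lines were at this floor in 2 regions. The region chr16:25522752-25523044, in an intergenic block of 5932 bp with identical direct repeats of 315 bp near its ends, had 0 counts in all 3 D2 libraries and 2, 2 and 0 in D2-13B6. It had 2.86, 3.42 and 2.95 CPM in B6 and 3.15 and 3.19 in B6-13D2, so the B6 mean was at least 38.1-fold higher than D2 when D2 is set to 3 counts per library.

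With the backgrounds exchanged in the same rule, 4 regions were found. At a ratio of 1/4 the counts were 462 and 7, and at 1/16 they were 44 and 2. The rule draws on 92900 regions with both B6-background means at or above 2 CPM and, exchanged, on 81306 with both D2-background means there. With CPM scaled by TMM (edgeR's trimmed mean of M-values) these numbers were 86648 and 86527, and the rule found 95 and 4 regions. On both scales, D2-low regions outnumbered their counterparts.

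Over all 246840 regions tested, edgeR's quasi-likelihood test with Benjamini-Hochberg adjustment called 8.8% lower in D2 than in B6 and 17.4% lower in D2-13B6 than in B6-13D2 at an adjusted p under 0.05. All 141 D2-low regions were in both sets, which the rule fixes and from which nothing is read. The median log2 difference was -3.999 for D2 against B6 and -3.62 for D2-13B6 against B6-13D2.

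The strongest D2-low region, chr2:177329271-177330671, lies 4964 bp from the start of Gm14412, a predicted gene annotated as protein coding. It had 25.9, 27.3 and 26.8 CPM in B6 and 26.02 and 29.4 in B6-13D2, against 0.151, 0.324 and 0.343 in D2 and 0.372, 0.862 and 0.617 in D2-13B6. The B6 and B6-13D2 libraries overlapped, and the lowest D2-13B6 library was above the highest D2 library.

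The region chr8:84652186-84654171, 8681 bp from the start of Ier2, an immediate early gene, had 21.03, 17.8 and 20.01 CPM in B6 and 20.6 in both B6-13D2 libraries. In D2 it had 0.553, 0.595 and 0.458 CPM, and in D2-13B6 0.813, 1.02 and 1.44. It was single-copy only by the match criterion used here, since it belongs to a family of 34 D2-low regions that resemble each other, described below. The D2 and D2-13B6 libraries did not overlap.

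The region chr17:35489278-35491383 lies 14635 bp from the start of Pou5f1, which encodes the pluripotency factor OCT4. It had 16.6, 20.6 and 20.6 CPM in B6 and 20.7 and 26.1 in B6-13D2, against 1.28, 0.730 and 0.687 in D2 and 1.14, 1.35 and 1.99 in D2-13B6. The D2 and D2-13B6 libraries overlapped here. The promoter region of Pou5f1 itself was open in all 4 lines, with B6 and B6-13D2 means of 76.6 and 72.7 CPM, a D2 mean of 57.0 and a D2-13B6 mean of 30.8.

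The promoter of Trim12a, a tripartite motif gene of the antiviral Trim5 family, was the strongest D2-low region at a protein-coding start site (chr7:104298742-104300894). It had 17.0, 16.9 and 17.7 CPM in B6 and 20.9 and 18.6 in B6-13D2, against 0.855, 0.838 and 1.14 in D2 and 1.63, 1.51 and 1.92 in D2-13B6. A further D2-low region lay in an intron of the nearby family member Trim34a (chr7:104256449-104258092), in a masked block of 8108 bp, with a lower B6-background mean of 14.4 CPM and a higher D2-background mean of 0.568. The Trim12a region has 1 close copy within 5 Mb, so its counts are uncertain where reads could be assigned to either copy.

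The other regions among the 10 strongest had lower B6-background means of 15.6 to 20.5 CPM. Region chr2:177277294-177278309 had a B6 mean of 20.5 ± 1.8 CPM and a D2 mean of 0.161 ± 0.052 (SD, n = 3 each). Region chr12:23001426-23002640, in an intron of 2410018L13Rik, had 19.8 ± 2.1 and 0.163 ± 0.061. These were among the deepest losses of the 10, with ratios of the lower to the higher mean of 83.2 and 50.5.

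On chromosome 12, the CpG-rich region chr12:21898330-21900015 had 16.4 ± 0.55 CPM in B6 and 1.69 ± 0.27 in D2. The regions at the starts of the processed pseudogenes Gm48636 (chr12:19703313-19705230) and Gm49379 (chr12:19881330-19883283) had 16.2 ± 1.7 and 16.3 ± 1.1 CPM in B6, and 0.507 ± 0.31 and 1.03 ± 0.39 in D2. The intronic Kdm4c region (chr4:74367287-74368622), in a gene for a histone H3 lysine 9 demethylase, had means of 15.6 ± 1.9 CPM in B6 and 19.2 ± 1.2 in B6-13D2 (n = 2). Its means were 0.734 ± 0.19 CPM in D2 and 0.698 ± 0.24 in D2-13B6. In contrast to the Ier2 region, its D2 and D2-13B6 values lay within each other's spread.

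Protein-coding promoters were counted without a share over other regions, so their number is a description. Besides Trim12a, 4 D2-low regions lay within 1000 bp of a protein-coding start site, at the predicted genes Gm21863 and Gm14412, the vomeronasal receptor gene Vmn1r1 and the myotubularin-related gene Mtmr10. At Gm21863 (chr12:19953526-19955592) the means were 15.9 ± 2.0 CPM in B6 and 1.82 ± 0.28 in D2, close to the limit of the rule. At Mtmr10 (chr7:64299873-64300640) they were 2.48 ± 0.25 and 0.160 ± 0.017 CPM. The 4 promoter regions of Trim12a, Gm21863, Gm14412 and Mtmr10 and a region at the immunoglobulin heavy chain variable gene Ighv2-6-8 (chr12:113795785-113796715) overlapped coding sequence. The Ighv2-6-8 region had 5.06 ± 0.30 CPM in B6 and 0.461 ± 0.11 in D2.

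The rule is a pair of thresholds, and regions beside them were nearly alike. Just inside the minimum level were chr15:45590496-45590774 and chr9:84888908-84889549 (lower means of 2.02 and 2.04 CPM), and just outside were chr14:44299534-44300286 and chr5:93683900-93685213 (2.00 and 1.98). Just inside the ratio were chr16:75941508-75942549 and chr6:9145290-9145808 (8.02 and 8.04), and just outside were chr12:87789324-87790185 and chr8:123308763-123309334 (7.99 and 7.97).

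The interval on chromosome 13 was then compared within each background. The rule did not contrast these lines with each other, but it bounded the mean of each of them, so a region with a large gain or loss of signal in 1 line could not become a D2-low region, and the comparisons below are limited by that. For B6-13D2 against B6, 0 of 141 were called by edgeR's quasi-likelihood test with Benjamini-Hochberg adjustment, beside 0.474% of all regions tested, and 4 had an unadjusted p under 0.05. At the share over all regions, fewer than 1 of the 141 would be called, so 0 is near the background. DESeq2 also called 0, and on simulated data the test found 22% of the regions changed by 1 on the log2 scale. The simulated regions were not matched to the counts of the D2-low regions. The median log2 fold change was -0.05, beside -0.01 over all regions, with 62 positive and 79 negative values. When the D2-background libraries were left out of the fit, 1 was called, the region chr14:51487810-51488472 in an intron of Gm7247, named after its values were seen. It had 4.40, 4.47 and 5.15 CPM in B6 and 2.45 and 2.29 in B6-13D2, which do not overlap, and its adjusted p was 0.189 with all 11 libraries and 0.00769 in the smaller fit.

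On the D2 background the remaining signal was lower in D2 than in D2-13B6 at 19 D2-low regions and higher at 0. These are 13.5% of the 141. Over all regions 23.7% were called in either direction, 15.2% lower in D2 and 8.53% higher. Of the 141, 70 passed the filter on low counts only through the B6-background libraries, where the rule requires them to be high, and so did 5 of the 19. In a fit of the D2-background libraries alone, 71 passed and 10 were called, all lower in D2 (14.1%), beside 21.6% of the 243035 regions tested in that fit. D2 minus D2-13B6 on the log2 scale had a median of -0.30 over the D2-low regions and 0.04 over all regions, with 93 negative and 48 positive values. In 11 of the 19 (57.9%) the libraries of the lines did not overlap, beside 88.6% of all regions called lower in D2. By class, the 19 were 9 of 38 single-copy regions, 7 of 52 with matches elsewhere and 3 of 51 in long blocks. The median D2-13B6 level was 0.533, 0.246 and 0.207 CPM in this order. The difference between classes was not tested. The 19 differences ran from -0.77 to -2.59 on the log2 scale. The last value, at chr9:84888908-84889549, rests on a D2 mean of 0.0168 CPM. This region passed the filter on low counts only through the B6-background libraries. Its value was -4.94 without D2 replicate 1. The region was not called without D2 replicate 2, D2 replicate 3 or D2-13B6 replicate 3 (adjusted p = 0.0960, 0.0879 and 0.0809 by edgeR).

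Part of these calls changed with single libraries and with the scaling. Without D2-13B6 replicate 3, 19 D2-low regions were called, 16 lower and 3 higher in D2, and 13 of the original 19 were among them, and the median was -0.14. Without D2 replicate 2, 12 were called lower and 2 higher, with 9 of the original 19 among them. With total counts in place of TMM, 13 were called lower and 5 higher with a median of -0.12, and the median over all regions moved from 0.04 to 0.21. Beside this, the promoters of 14 of the 25 pluripotency genes were called higher in D2 than in D2-13B6 and 0 lower (median log2 difference 0.48), a difference in the opposite direction whose part in the result was not tested. For B6-13D2 against B6 these promoters gave 0 calls of 25.

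**Figure D2:**
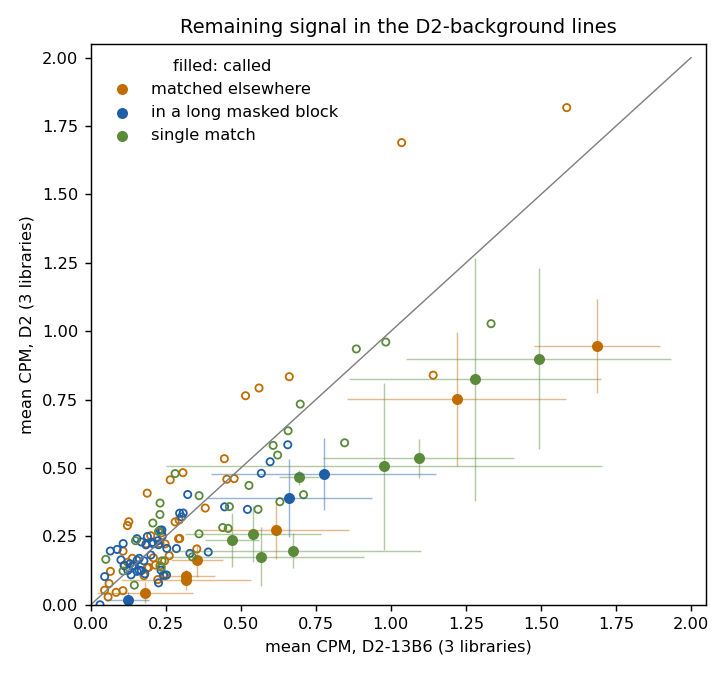
Mean CPM of each D2-low region in D2 (vertical axis) and D2-13B6 (horizontal axis), 3 libraries each. Filled points are the 19 regions called different by edgeR, with bars of 1 SD, and all lie below the line of equal values.

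The clearest of them was in an intron of Tasp1, the gene of the protease taspase 1 (chr2:140036762-140037980). It had 0.151, 0.270 and 0.172 CPM in D2 and 0.418, 0.443 and 1.17 in D2-13B6, against 4.51, 5.13 and 6.84 in B6 and 8.39 and 6.65 in B6-13D2. No D2 library reached a D2-13B6 library, and D2-13B6 replicate 3 was the highest of the 6. On the log2 scale D2 differed from D2-13B6 by -1.83 (SE 0.38, adjusted p = 0.000124 by edgeR), and -1.37 without D2-13B6 replicate 3.

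Trim12a followed, with a log2 fold change of -0.999 (SE 0.22, adjusted p = 0.000282 by edgeR) and libraries that did not overlap. The Ier2 region changed by -1.16 (SE 0.26, adjusted p = 0.000347). For chr4:52542804-52543994, 45560 bp from Vma21-ps, the value was -1.72 (SE 0.39, adjusted p = 0.000453). Its CPM were 0.201, 0.270 and 0.0572 in D2 and 0.418, 0.326 and 0.960 in D2-13B6. The region at the start of the processed pseudogene Gm48134 (chr14:42543262-42543842), which passed the filter on low counts only through the B6-background libraries, had a value of -2.05 (SE 0.51, adjusted p = 0.00121), from 0.0503, 0.108 and 0.114 CPM in D2 and 0.256, 0.559 and 0.137 in D2-13B6. Without D2-13B6 replicate 2 it was -1.25 and not called (adjusted p = 0.133). In each of these 4 regions every D2 library was below every D2-13B6 library, at levels far below those of B6.

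By ratio of means, and among regions with at least 20 counts over the 6 libraries, D2-13B6 exceeded D2 most at the start of the transcribed pseudogene Gm6802 (chr12:19490432-19490991, 4.09 times, 20 against 5 counts), at the start of Gm48134 (3.49 times) and at the Tasp1 intron (3.42 times). It was lowest relative to D2 at chr12:19610192-19611003 (0.302 times, 6 against 18 counts), chr2:95648181-95648467 (0.332 times) and chr14:42395070-42395568 (0.418 times). The last 3 had adjusted p of 0.108, 0.0832 and 0.0958 by edgeR and were not called.

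Whether B6-13D2 minus B6 differs from D2 minus D2-13B6 was tested as an interaction, the first difference minus the second. The labels give the intervals of B6-13D2 and D2-13B6 different first markers, and each genotype is 1 line. The term therefore compares lines and cannot be assigned to the interval. The interaction was called positive at 7 D2-low regions and negative at 0. That is 4.96%, beside 6.54% of all regions in either direction and 4.55% in the positive direction. The share is thus near the background. Among the 7, the region at the start of Gm6802 passed the filter on low counts only through the B6-background libraries. The Tasp1 intron had the largest value for its error, 2.29 (SE 0.45, adjusted p = 0.00136 by edgeR). Trim12a had 1.20 (SE 0.28, adjusted p = 0.00629), the Ier2 region 1.23 (SE 0.32, adjusted p = 0.0114), the Pou5f1 region 1.14 (SE 0.31, adjusted p = 0.0175) and the strongest region beside Gm14412 1.43 (SE 0.40, adjusted p = 0.0183). The Gm14412 value was 0.95 and not called without D2-13B6 replicate 2 (adjusted p = 0.165 by edgeR).

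The sequence of the D2-low regions was not used by the rule and is described beside that of the 92900 regions open in both B6-background lines and of all 213345 regions. More than 50% of the bases were soft-masked in 79 D2-low regions (56.0%), in 8.06% of open regions and in 17.0% of all. The centre of 51 D2-low regions (36.2%) lay in a block of at least 4 kb of continuous masked sequence. Gaps of up to 50 bp were allowed within a block. The same held for 1.12% of open and 3.82% of all regions. Read from the other side, of 1040 open regions in such blocks 51 were D2-low (4.90%) and 497 were called lower in D2 than in B6 (47.8%). Of the 91860 open regions outside such blocks, 90 were D2-low (0.0980%) and 12.3% were called lower. Open chromatin in long blocks was thus often lower in D2, beyond the regions the rule chose, and the D2-low regions are among those counted.

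The D2-low regions were sorted into 3 classes. The first is the 51 in long masked blocks, the second 52 others with at least 1 match elsewhere (at least 90% identity over at least 80% of the region) and the third 38 with none. The third class is called single-copy by this criterion only, which does not count shorter or less alike copies. The blocks were 5607 to 23270 bp long with a median of 6823 bp, and 37 of 51 were between 5500 and 8000 bp. The D2-low region sat within 1000 bp of a block end in 40 and crossed the end in 19. It matched at least 100 other places in 27, up to 4169, and had no match elsewhere by the same criterion in 16. Over all classes 54 D2-low regions had no match, so the lack of a match was not limited to the third class. The GC content of the regions in long blocks had a median of 56.5%. The median lower mean in B6-background lines was 2.68 CPM in long blocks, 3.64 in regions with matches elsewhere and 5.57 in single-copy regions.

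**Figure D3:**
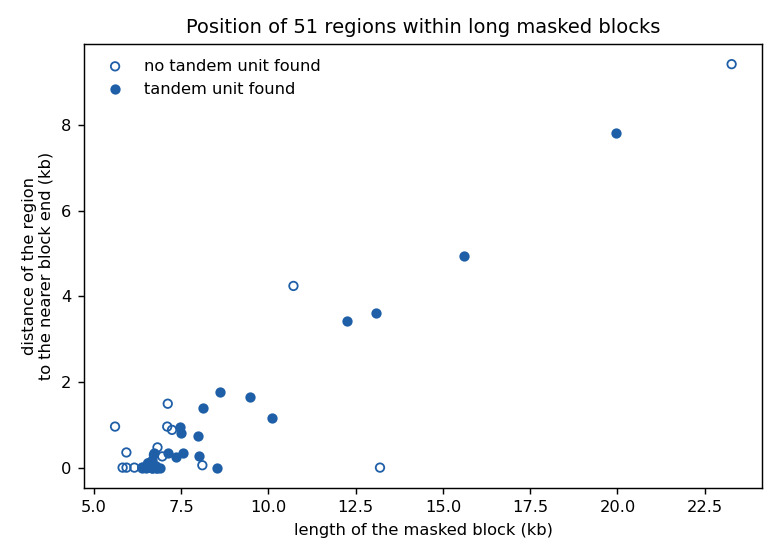
Length of the masked block (horizontal axis, kb) and distance of the D2-low region to the nearer end of the block (vertical axis, kb) for 51 regions in long blocks. Filled points have a tandem unit; most regions lie near the end of a block of 5.5 to 8 kb.

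A tandem repeat with a unit of 180 to 250 bp overlapped 26 of the 51 and 4 of the 90 other D2-low regions. Direct repeats were searched for around D2-low regions only, so no share over other regions is given. For repeats at a larger distance, the search was limited to lengths of 250 to 800 bp and at least 90% identity. A pair of direct repeats of 281 to 468 bp with 95.4% to 100% identity, 5504 to 7570 bp apart from outer end to outer end, was found around 7 of the 51 and 8 of all 141. Of the 51 blocks, 20 had neither. An example with the tandem unit is the Itpr1 region (chr6:108272156-108272973), which begins 6285 bp into a block of 7347 bp and ends 244 bp before its end. It had 2.97, 2.57 and 3.80 CPM in B6 and 2.897 and 2.07 in B6-13D2, against 0.277, 0.162 and 0.286 in D2 and 0.116, 0.140 and 0.206 in D2-13B6. The chromosome 7 region with the second printed pair (chr7:55598249-55599180) crosses the start of a block of 8538 bp and had 4.63 ± 0.46 CPM in B6 and 0.335 ± 0.11 in D2. An example with direct repeats is chr8:40569904-40571317 in an intron of Mtmr7, whose repeats of 322 bp were 99.4% identical. The files hold no repeat names, so no repeat family was assigned.

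Many D2-low regions resembled each other. Joining regions that aligned with at least 80% identity over at least 150 bp gave 9 families of 2 or more, which held 94 regions, and left 47 without a relative. The largest held 34 regions of mixed class on 10 chromosomes, 8 of them single-copy by the match criterion, among them the Ier2 region. The next held 28 regions on 11 chromosomes, 27 of them in long blocks and 15 with a tandem unit. Another held 11 regions on 7 chromosomes, 10 in long blocks and 9 with a tandem unit. Members of a family share sequence and their counts are not independent where reads could be placed in several copies.

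The 52 regions with matches elsewhere had a median of 10 matches. In 42 of them most matches lay within 5 Mb. Of the 52, 24 were on chromosome 12, 11 on chromosome 14, 6 on chromosome 2 and 3 on chromosome 4.

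The D2-low regions were unevenly spread. Chromosome 12 held 37 (8.46 per 1000 open regions), chromosome 14 17 (4.27), chromosome 2 14 (1.64), chromosome 4 13 (1.79) and chromosome 7 12 (1.72). The remaining chromosomes held 0 to 9 each.

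**Figure D4:**
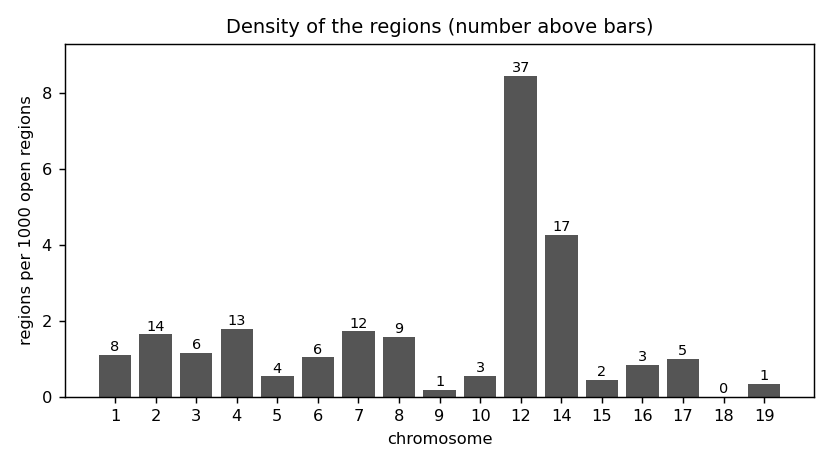
D2-low regions per 1000 open regions on each of the 17 chromosomes of the rule (bars), with the number of D2-low regions above each bar. Chromosome 12 stands highest with 37 regions, 8.46 per 1000, and chromosome 18 has 0.

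Joined at distances of up to 100 kb they formed 116 clusters, of which 101 were single regions and 15 held 40 regions. On chromosome 2, chr2:177249130-177351627 held 6 D2-low regions, all with local copies, with lower means of 3.54 to 26.7 CPM and D2-background means of at most 0.617. The strongest was the region beside Gm14412 described above. Of the 17 regions of the table in this span, 14 were called lower in D2 than in B6 and 0 higher. The 14 include the 6 D2-low regions, which the rule fixes as lower.

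On chromosome 12, chr12:22880216-23002640 also held 6, with lower means of 2.16 to 17.9 CPM, in and around the long non-coding gene 2410018L13Rik and predicted genes. The strongest was chr12:23001426-23002640. Of the 16 regions in the span 11 were called lower in D2, the 6 D2-low regions again among them. The cluster chr12:19881330-19964483, 1 of 2 with 3 D2-low regions, was mixed. Of its 10 regions, 3 were called lower in D2 and 5 higher. The 3 called lower are the D2-low regions themselves. Its strongest was the region at the start of Gm49379.

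Neighbouring regions that are not D2-low were not used by the rule and show how far the difference extends. Within 1 kb of a D2-low region, 55 of 61 tested neighbours (90.2%) were called lower in D2 than in B6 by edgeR and 0 higher. From 1 to 5 kb, 55 of 95 (57.9%) were lower and 1 higher. The share was 33.1% (109 of 329) from 5 to 20 kb and 23.0% (341 of 1481) from 20 to 100 kb, beside the 8.8% over all regions given above. The median log2 difference moved from -2.54 within 1 kb through -1.18 and -0.43 to -0.16.

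The classes differed in how far this reached. Within 5 kb, 87.3% of neighbours of regions with matches elsewhere were lower in D2, 69.2% of neighbours of long-block regions and 51.9% of neighbours of single-copy regions. From 20 to 100 kb the shares were 43.5%, 14.3% and 17.4%. The difference between classes was not tested. Neighbours within 1 kb can share an accessible site with the D2-low region, so they are not independent of it.

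**Figure D5:**
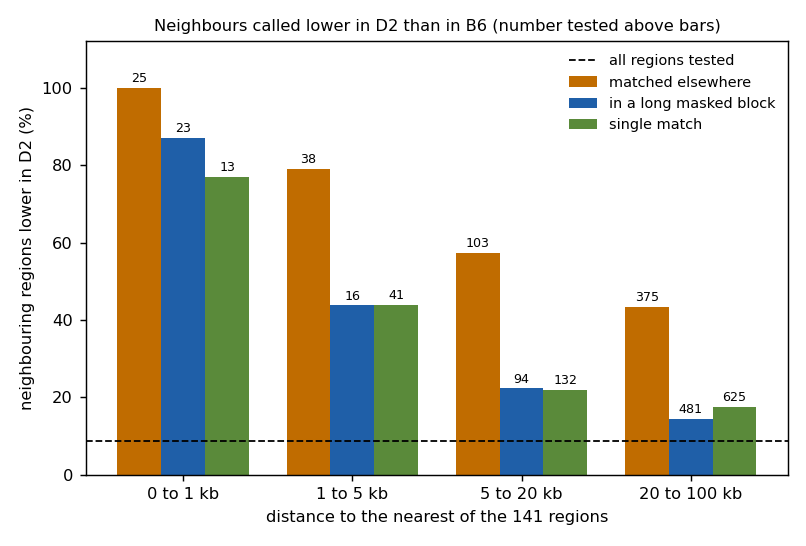
Share of neighbouring regions, D2-low regions left out, called lower in D2 than in B6 (vertical axis, %) by distance to the nearest D2-low region and by its class, with the number tested above each bar. The dashed line is the 8.8% over all regions tested, and all bars are above it.

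Counting along the table, a D2-low region stood in a run of consecutive regions called lower in D2 than in B6 with a median of 3, itself included, and a maximum of 17. It stood alone in 32 cases. Regions with matches elsewhere had a median run of 6, long-block and single-copy regions of 2. Runs can include other D2-low regions, which the rule fixes as lower. No run length over other regions is given, so these lengths are a description.

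By GENCODE M21 annotation, 76 D2-low regions were intergenic (53.9%, beside 30.9% of open and 38.7% of all regions) and 36 intronic (25.5%, beside 32.3% and 37.5%). Another 26 lay within 1000 bp of an annotated start site (18.4%, beside 25.6% and 15.3%) and 3 in other exons (2.13%, beside 3.46% and 3.04%). The median distance of the D2-low regions to the nearest protein-coding start site was 45560 bp, beside 10566 bp for open and 19724 bp for all regions. No gene lay within 5 kb of 62 (44.0%, beside 21.3% of open and 29.7% of all regions). A predicted gene lay within 5 kb of 46 (32.6%, beside 23.7% of open and 21.2% of all regions). Of the gene families listed, zinc finger genes lay near 4 (2.84%, beside 1.60% of open and 1.20% of all): Zfp248, Zfp534, Zfp697 and Zfp986. The pluripotency list, the cytochromes P450 and the NLR genes lay near 0, beside 0.178%, 0.155% and 0.0226% of open regions. Olfactory receptors, vomeronasal receptors, histocompatibility genes and interferon-inducible genes each lay near 1 (0.709%). In this order the shares were 0.199%, 0.0926%, 0.0861% and 0.0980% of open regions, and 0.360%, 0.164%, 0.0534% and 0.0862% of all.

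Short motifs were searched on both strands in the central 300 bp of each region, and a window can hold several. AP-1 letters (TGANTCA) were in 6 D2-low windows (4.26%, beside 13.8% of all regions), CTCF letters (CCANNAGNG) in 23 (16.3%, beside 23.5%) and KLF letters (GGGTGTGG) in 4 (2.84%, beside 5.89%). The octamer ATTTGCAT was in 4 (2.84%, beside 3.25%). The letters TCAAGGTCA of ESRRB, an orphan nuclear receptor of pluripotent cells, were in 1 (0.709%, beside 1.39%) and those of NRF1 (GCGCNTGCG) in 1 (0.709%, beside 0.889%). Those of ETS factors (CCGGAAGT) were in 0, beside 0.753%. Over the open regions the shares were 11.4% for AP-1, 24.0% for CTCF, 5.64% for KLF, 2.30% for the octamer, 1.27% for ESRRB, 1.53% for NRF1 and 1.09% for ETS. The octamer was thus in a smaller share of D2-low windows than of all windows and in a larger share than of open ones, on 4 windows. The other 6 motifs were in a smaller share than in both sets. For ESRRB, NRF1 and ETS this rests on 1, 1 and 0 windows, so nothing is read from it. No difference in share was tested.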

How the data were processed

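Per the file headers, the authors deposited unnormalized whole-number counts per region in 1 table of 248336 regions for 11 libraries, made from alignments with duplicate and mitochondrial reads removed. The submitters' processing notes name mm10, Trimmomatic 0.39, BWA 0.7.5, Picard 2.0.1, MACS 1.4.2, bedtools 2.9.2 and edgeR 3.34.1 without their roles. The handling of reads with several possible placements, the shift for the transposase, and whether reads or fragments were counted are not given in the sources used here.

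CPM are counts divided by the library's total over all regions. Values after ± are SD between the libraries of a line, and no intervals on counts are given. The D2-low regions and the lists were chosen with earlier results of these data known. Regions named are the 10 strongest by lower B6-background mean, the strongest of the largest clusters, those at protein-coding starts or coding sequence, up to 5 called per comparison, those beside the thresholds and 3 at each extreme of the D2-13B6 to D2 ratio, plus examples chosen after their values were seen.

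Regions were tested with edgeR 4.0.16 in R 4.3.3 (quasi-likelihood F-test) with TMM, filterByExpr and 1 fit of all 11 libraries, adjusted by Benjamini-Hochberg over the 246840 regions tested. On simulated data of 245839 regions it recovered 22% of regions changed by 1 on the log2 scale and 83% of those changed by 2 for B6-13D2 against B6, and 39% and 92% for D2 against D2-13B6. DESeq2 1.42.0 was an alternative. Sequence came from GRCm38, genes from GENCODE M21 and matches from BLAST 2.17.0. Whether the table's starts count from 0 or 1 is not given in the sources used here. Libraries of a line differed by more than sampling noise (chi-square per degree of freedom 2.06 to 6.33), so all 11 were kept.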

Additional observations from a re-analysis of the deposited data

Results flagged for a closer look

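At 7 of the 141 D2-low regions, B6-13D2 minus B6 differed from D2 minus D2-13B6 by edgeR's interaction term with Benjamini-Hochberg adjustment. The share is near that over all regions. The congenic lines carry intervals with different labelled first markers, and each genotype is 1 line. The term therefore compares lines and cannot be assigned to the interval. For chr2:140036762-140037980 in Tasp1 the term was 2.29, and in all of the 17 alternatives run it remained called. For chr7:104298742-104300894 at Trim12a it was 1.20, for chr8:84652186-84654171 near Ier2 1.23, for chr17:35489278-35491383 near Pou5f1 1.14 and for chr2:177329271-177330671 beside Gm14412 1.43. Of 17 alternatives each, Trim12a remained called in 16, Ier2 in 15, and the Pou5f1 and Gm14412 regions in 13, with adjusted p up to 0.176, 0.200, 0.264 and 0.181. The Gm14412 value was 0.95 (adjusted p = 0.165) without D2-13B6 replicate 2. For chr4:52542804-52543994 it was 1.47 and remained called in 8 of 17 alternatives, with adjusted p up to 0.232. The region chr12:19490432-19490991 at Gm6802 passed the filter on low counts only through the B6-background libraries. Its term was 2.46 and remained called in 3 of 17 alternatives, with adjusted p up to 0.392. It was 1.55 without D2-13B6 replicate 2, and its D2 libraries held 5 counts in all.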

How the results depend on the processing

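The number of D2-low regions follows the rule's thresholds: it was 462 at a ratio of 1/4, 44 at 1/16, 338 with a minimum of 1 CPM and 58 with a minimum of 4 CPM, beside 95 with TMM-scaled CPM, 155 with chromosomes 11 and 13, and 114 (without D2-13B6 replicate 2) to 172 (without D2-13B6 replicate 3) with 1 library left out. For B6-13D2 against B6, a fit of only those libraries called 1, and leaving out any 1 library called 0. For D2 against D2-13B6, 5 were called with a minimum fold of 1.5, 10 of 71 tested in a fit of only those libraries, and 14 to 20 with 1 library left out. For the interaction, 1 was called with a minimum fold of 1.5 and 2 (without B6-13D2 replicate 2) to 11 (without D2-13B6 replicate 1) with 1 library left out. Without B6 replicate 1 it was 4. With the replicate number as a block the calls were 0, 21 and 6. Same-numbered libraries of different lines did not deviate together (correlations of -0.0486 to 0.0683), so the numbers were not taken as a pairing. With total counts, the 5 D2-low regions called higher in D2 than in D2-13B6 were chr2:95648181-95648467, chr4:145870115-145870473, chr12:20625220-20625557, chr12:21898330-21900015 and chr14:42395070-42395568. Without D2-13B6 replicate 3, the 3 called higher were chr4:145870115-145870473, chr12:20625220-20625557 and chr12:87759719-87761615. Neighbours within 5 kb called lower in D2 than in B6 numbered 98 to 116 over the alternatives, beside 110. Clusters numbered 127 at 20 kb and 96 at 500 kb. With 1 library left out, the median log2 fold change ran from -0.09 to 0.0012 for B6-13D2 against B6 and from -0.41 to -0.14 for D2 against D2-13B6. No called difference reversed direction under the alternatives run. Levels in the D2-background lines rest on a median of 53 counts over 6 libraries, which limits comparisons between these lines.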
